A study of Mus musculus with 20 samples.

Results

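The genes described here are 10 cytokine transcripts of inflammation and of mucosal T cell responses, Tnf, Il1b, Il6, Il10, Il12a, Il23a, Il17a, Il17f, Il22 and Ifng, out of 21154 genes with a symbol on the arrays. They were chosen by name, with earlier results of these data known, and so were the gene lists used below. A gene's probes were those whose RefSeq accession maps to its symbol, and each of the 10 genes had 1 probe. The study fed male C57BL/6J mice a porphyran or a nori extract within a high-fat diet and measured gene expression in 5 tissues with 1-colour microarrays. Porphyran is a sulphated polysaccharide of the red seaweed that is dried as nori.

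The 4 diets were HFD+Ex, a 60% fat diet with 2% nori extract, HFD+PP, the 60% fat diet with 2% porphyran, HFD, the 60% fat diet alone, and CD, a control diet with 10% fat. Mice were 5 weeks old at the start and ate the diet for 13 weeks, so the HFD+Ex, HFD+PP and HFD groups all shared the high-fat diet. The tissues were colon, ileum, liver, brown fat and mesenteric white fat. A pool of RNA from 7 mice on the same diet was hybridised for each tissue, which makes 20 arrays. Every group is thus 1 array, no spread between mice was measured, and no difference between diets has a test, a standard error or an interval. For a given diet, all 5 tissues came from 1 set of mice, which makes them no replicates of one another.

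Tumour necrosis factor and interleukin-1 beta are early cytokines that macrophages and other myeloid cells release, and interleukin-6 follows them in many cell types. Interleukin-12, a pair of the Il12a and Il12b products, drives T cells and natural killer cells to make interferon-gamma, while interleukin-23, a pair of the Il23a and Il12b products, sustains T helper 17 cells and group 3 innate lymphoid cells that make interleukin-17 and interleukin-22. In the gut wall, interleukin-17 and interleukin-22 act on epithelial cells, which respond with antimicrobial proteins, fucosylation and neutrophil-attracting chemokines. Interleukin-10 restrains these responses.

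A level below is the log2 processed signal of a probe minus the 75th percentile of its array, so a level of 0 is the signal that 75% of the spots stay at or below. Levels of different genes are not set against each other, because probes differ in how brightly they report a transcript. A comparison counts a gene as measured if the scanner software flagged it well above background on 1 array or both. It was called higher or lower when the log2 difference was at least 1, a 2-fold difference. Where the gene lacked that flag on the dimmer array, the floor took the place of its signal, and the result is given as "at least". The floor of an array is the lowest signal among its flagged spots, or the gene's own signal where that is higher. Floors lay between -6.07 and -4.22.

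The arrays had 50.7% to 67.9% of their spots well above background and no saturated spot. Hepatocyte markers stood at a mean level of 9.02 or more on every liver array, and all 8 fat cell markers, all 7 brown fat markers, all 6 ileum enterocyte markers and all 7 colon epithelium markers were well above background in their own tissues. The arrays lay on 4 slides. Mesenteric fat arrays of HFD+Ex and HFD+PP lay on another slide than those of HFD and CD, and the brown fat array of HFD+Ex lay apart from the other brown fat arrays, so slide and diet cannot be told apart in the comparisons that cross them. In HFD against CD the median difference of all measured genes was 0.12 log2 in mesenteric fat and −0.14 in brown fat, and it lay nearer to 0 in all other comparisons. In bulk tissue, fewer cells of a type and less RNA per cell cannot be told apart.

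The cytokines were dim, and most were detected in some tissues only. Il22 was well above background on 18 of 20 arrays, Il1b on 17, Tnf on 14, Ifng on 8, Il17a on 6, Il6 on 4, Il10 and Il12a on 2 each, Il17f on 1 and Il23a on none. Il6, Il10 and Il12a passed only in mesenteric fat. Il17a passed on all 4 ileum arrays and on 2 mesenteric fat arrays. Ifng passed on all 4 mesenteric fat arrays, on 3 ileum arrays and on 1 colon array. Brown fat had the fewest, with Il22 on 2 arrays and Il1b on 1.

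**Figure D1:**
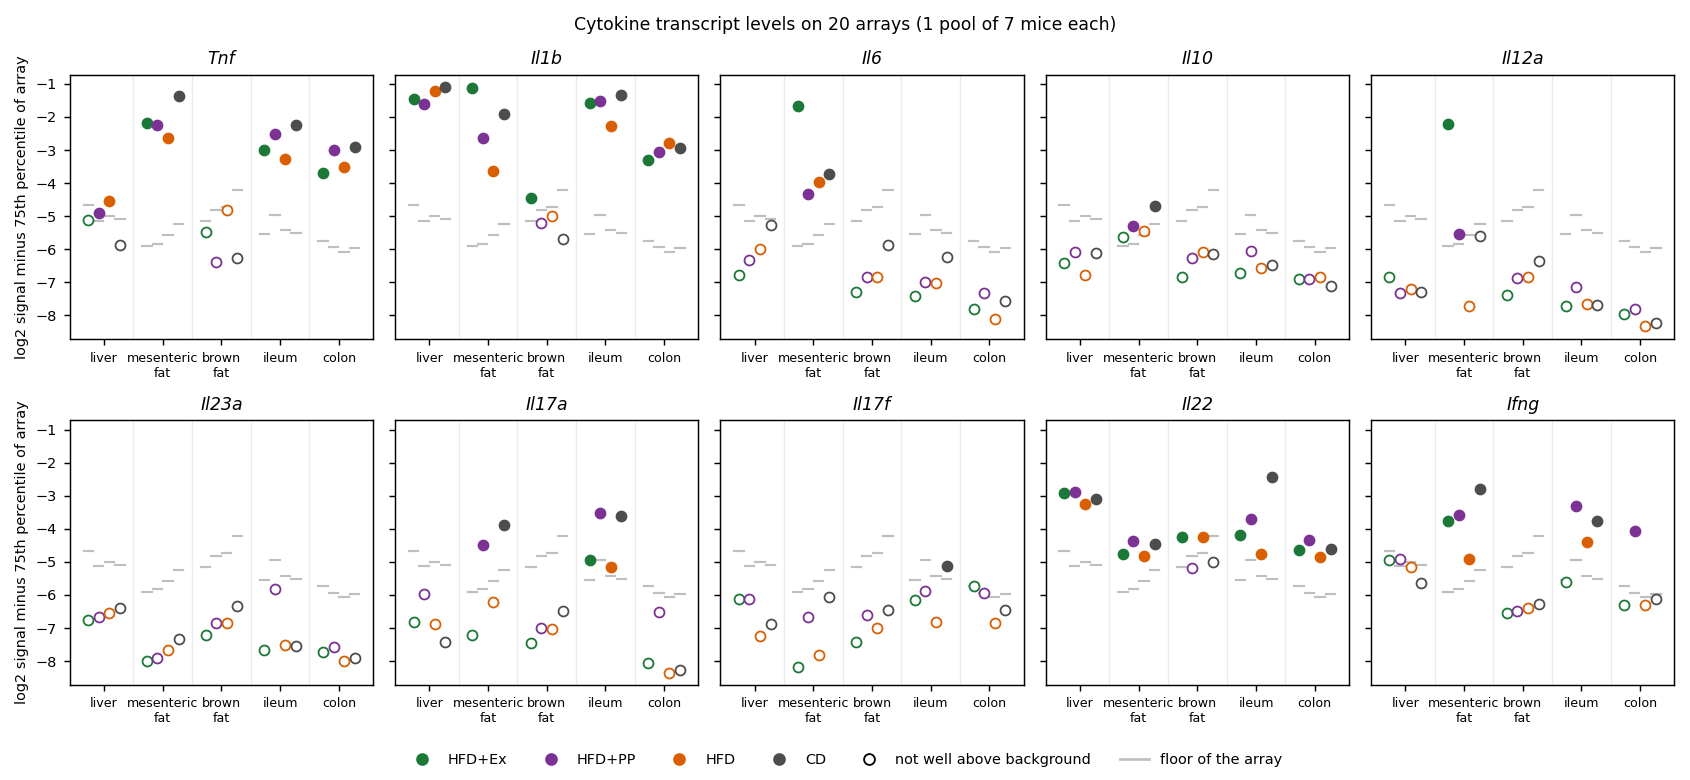
Log2 level (processed signal minus the 75th percentile of the array) of the 10 cytokines in 5 tissues, with 1 point per array and the diets HFD+Ex, HFD+PP, HFD and CD from left to right. Filled points were well above background, open points were not, and grey ticks mark the floor of each array. Il6 and Il12a stand at −1.66 and −2.23 on the HFD+Ex mesenteric fat array, above all their other arrays.

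Among the early myeloid cytokines, Tnf had its highest median over diets in mesenteric fat, −2.21, followed by ileum at −2.77 and colon at −3.26, and the ranges over diets of neighbouring tissues overlapped. Liver, with a median of −5.01, lay below every colon array. Il1b had its highest median in liver, −1.34 with a range over diets of 0.53, and ileum followed at −1.54 and mesenteric fat at −2.27, all overlapping. With the authors' own scaling, ileum came before liver for Il1b. In mesenteric fat the Il1b range was 2.53, so there the diets differed more than the median levels of liver, ileum and mesenteric fat did. Il6 in mesenteric fat ranged from −4.33 to −1.66 and did not overlap with any other tissue. With normexp background correction liver had the highest Il6 median, although Il6 was not well above background on any liver array.

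Among the T cell and innate lymphoid cytokines, Il17a was highest in ileum, with levels from −5.16 to −3.53, and its mesenteric fat levels overlapped that range. With normexp, liver came first for Il17a, Il17f and Ifng, none of which was well above background on any liver array. Ifng was highest in mesenteric fat, with a median of −3.67, and ileum overlapped with it at −4.07. Il22 had its highest median in liver, −3.02, where the 4 diets lay within 0.37. In ileum the 4 Il22 levels spread over 2.32. A near-identical copy of Il22, Iltifb, is also represented on the array, so signal of the Il22 probe may come from either gene. Il23a, the interleukin-23 subunit, stayed between −7.99 and −5.81 without passing background anywhere, and its tissue order has no meaning at that level.

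Over the 5 tissues, HFD against CD gave 20 measured pairs of cytokine and tissue out of 50, of which 7 were lower and 0 higher, where 3.37% and 3.9% of all measured gene and tissue pairs were lower and higher. HFD+PP against HFD gave 21 measured pairs, of which 7 were higher and 0 lower, against 2.09% and 1.91% of all pairs. With HFD+Ex against HFD 19 were measured, of which 4 were higher and 1 lower, against 1.62% and 1.9%. With HFD+Ex against HFD+PP 22 were measured, of which 3 were higher and 4 lower, against 1.23% and 1.56%. The HFD arrays enter 3 of these comparisons, so their counts are not independent of each other. All calls lay in ileum, mesenteric fat and colon.

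Promoter sequences are shown for Il17a and Il22, which were both lower with HFD and higher with HFD+PP in ileum, and for Il1b and Il6, which were both higher with HFD+Ex in mesenteric fat. They are RefSeq sequences of assembly GRCm38.p6, the 250 bases before the start that the promoter table lists, read 5′ to 3′ on the strand of the gene. For Il22 and Il1b that start lies inside the span of the gene in the gene table, so the Il22 stretch lies within that span and the Il1b stretch overlaps it. Of the 10 genes, 8 had an entry. Capitals mark matches, on either strand, to NF-kappaB (GGG and CC with 5 bases of any kind between), AP-1 (TGANTCA), STAT (TTCNNNGAA) and the TATA box (TATAAA).
Il17a, chr1:20730655-20730904, plus strand: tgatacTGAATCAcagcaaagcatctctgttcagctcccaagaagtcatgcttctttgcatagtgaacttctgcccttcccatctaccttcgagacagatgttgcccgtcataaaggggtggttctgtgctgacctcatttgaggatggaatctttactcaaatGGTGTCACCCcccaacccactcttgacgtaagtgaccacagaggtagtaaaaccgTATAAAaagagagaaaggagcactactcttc
Il22, chr10:118204714-118204963, plus strand: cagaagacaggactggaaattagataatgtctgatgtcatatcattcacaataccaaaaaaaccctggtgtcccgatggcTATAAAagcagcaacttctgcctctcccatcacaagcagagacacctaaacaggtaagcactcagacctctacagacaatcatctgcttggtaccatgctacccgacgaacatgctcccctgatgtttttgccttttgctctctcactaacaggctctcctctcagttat
Il1b, chr2:129371140-129371389, minus strand: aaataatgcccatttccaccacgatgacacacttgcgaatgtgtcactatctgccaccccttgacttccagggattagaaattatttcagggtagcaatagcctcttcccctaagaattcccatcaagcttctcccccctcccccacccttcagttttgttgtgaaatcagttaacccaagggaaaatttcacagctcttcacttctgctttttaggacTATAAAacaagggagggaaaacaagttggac
Il6, chr5:30012864-30013113, plus strand: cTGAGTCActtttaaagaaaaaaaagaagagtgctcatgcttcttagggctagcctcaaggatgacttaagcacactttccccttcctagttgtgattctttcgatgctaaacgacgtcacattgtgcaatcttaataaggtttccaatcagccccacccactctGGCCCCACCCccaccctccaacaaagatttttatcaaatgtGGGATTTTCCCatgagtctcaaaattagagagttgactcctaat

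Of 32851 promoters of the same length, 45.8% held the NF-kappaB letters, 6.75% AP-1, 7.02% STAT and 12.4% the TATA box. Il17a held 1 match each to NF-kappaB, AP-1 and the TATA box, the last of these 31 bases before the listed start. Il6 held 1 AP-1 match and 3 NF-kappaB matches, of which 2 overlap in one run of capitals. Il22 and Il1b held the TATA box alone. A match describes the letters and shows no binding.

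In ileum, Il17a and Il22 were lower with HFD than with CD and higher with HFD+PP than with HFD, while HFD+Ex differed from HFD by less than the threshold for both. Il17a, the signature cytokine of T helper 17 cells, stood at −4.95 with HFD+Ex, −3.53 with HFD+PP, −5.16 with HFD and −3.60 with CD. The HFD+PP and CD arrays were the high pair and the HFD+Ex and HFD arrays the low pair. The log2 difference was −1.56 in HFD against CD, a fold of 2.94, then 1.63 in HFD+PP against HFD, a fold of 3.10, and 0.21 in HFD+Ex against HFD. HFD+Ex was lower than HFD+PP by 1.42 log2. The probes of Il17a, Il17f and Il22 had 1 spot each per array, so no second spot checks their values in any tissue.

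Il22, which acts on epithelial cells, stood at −4.18 with HFD+Ex, −3.71 with HFD+PP, −4.76 with HFD and −2.44 with CD. CD was the highest array, and no high-fat diet came within 1 log2 of it. The log2 difference was −2.32 in HFD against CD, a fold of 4.99. It was 1.05 in HFD+PP against HFD and 0.58 in HFD+Ex against HFD. Il17f, the close relative of Il17a, passed background on the CD array alone, at −5.12, and HFD was lower by at least 0.31 log2.

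Ifng, the main product of T helper 1 and natural killer cells, stood at −5.59 with HFD+Ex, where it was not well above background, −3.30 with HFD+PP, −4.39 with HFD and −3.75 with CD. The difference of HFD from CD was −0.65 log2, short of the threshold. HFD+PP was higher than HFD by 1.09 log2. HFD+Ex was lower, with bounds of −1.16 against HFD and −2.25 against HFD+PP. The HFD+PP value averages 2 spots that read −2.03 and −4.57, while on the 3 other ileum arrays the 2 spots lay closer together, at −5.64 and −5.55 with HFD+Ex, −4.51 and −4.27 with HFD, and −3.77 and −3.72 with CD. Without the brighter spot of the HFD+PP array, the difference of HFD+PP from HFD turned to −0.18 and that of HFD+Ex from HFD+PP came to −0.98, so both calls rest on 1 spot.

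Of the myeloid cytokines, Tnf stood at −3.01 with HFD+Ex, −2.52 with HFD+PP, −3.27 with HFD and −2.23 with CD, and HFD was lower than CD by 1.04 log2, a fold of 2.05. Il1b stood at −1.56 with HFD+Ex, −1.52 with HFD+PP, −2.26 with HFD and −1.34 with CD. For both genes HFD was the lowest array, and both probes were printed 10 times, with an SD of the difference between single spots of 0.11 log2 for Tnf and 0.12 for Il1b in HFD against CD. The Il1b difference, −0.92, and the HFD+PP differences from HFD, 0.75 for each gene, stayed under the 1 log2 threshold. Il6, Il10, Il12a and Il23a were not well above background on any ileum array.

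In all, 3 of the 6 cytokines measured in ileum were lower in HFD than in CD and 0 were higher, where 2.27% of all measured genes were lower and 1.57% higher. HFD+PP against HFD had 3 of 5 higher and 0 lower, where 1.93% were higher and 0.939% lower. For HFD+Ex against HFD, 0 were higher and 1 of 5 lower, where 1.11% were higher and 0.695% lower. For HFD+Ex against HFD+PP, 0 were higher and 2 of 5 lower, where 1.31% were higher and 2.0% lower. The counts of HFD+PP against HFD and of HFD+Ex against HFD+PP each include Ifng, whose call there rests on 1 spot. The 4 ileum arrays lay on 1 slide. With normexp background correction, which adds an offset that shrinks differences of dim probes, none of these calls reached 1 log2, and the Il22 difference of HFD from CD was −0.97. With quantile normalization, Tnf in HFD against CD and Il22 in HFD+PP against HFD fell short, at −0.93 and 0.91.

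Genes that interleukin-17 and interleukin-22 are known to induce in epithelia ran in the same directions in ileum. Of the 13 measured, 9 were lower and 0 higher in HFD than in CD, with a median log2 difference of −1.25, against −0.01 over all measured genes. In HFD+PP against HFD 6 were higher and 0 lower, with a median of 0.90. In HFD+Ex against HFD 0 were higher and 1 lower, with a median of −0.04, and in HFD+Ex against HFD+PP 0 were higher and 6 lower, with a median of −0.91. Fut2, the fucosyltransferase that interleukin-22 induces in ileal enterocytes, was lower by 2.12 log2 in HFD than in CD, higher by 1.63 in HFD+PP than in HFD, and lower by 2.33 in HFD+Ex than in HFD+PP. S100a8 and S100a9, the calprotectin subunits of neutrophils and stressed epithelia, differed by −1.92 and −2.59 in HFD against CD and by 1.97 and 1.75 in HFD+PP against HFD. Cxcl5, a neutrophil chemokine, was higher by 1.71 in HFD+PP than in HFD, and Lcn2, an iron-scavenging antimicrobial protein, was lower by 1.33 in HFD than in CD. Reg3b and Reg3g, antimicrobial lectins that are classic interleukin-22 targets, stayed near 0, at 0.00 and −0.11 in HFD against CD and 0.07 and 0.15 in HFD+PP against HFD.

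**Figure D2:**
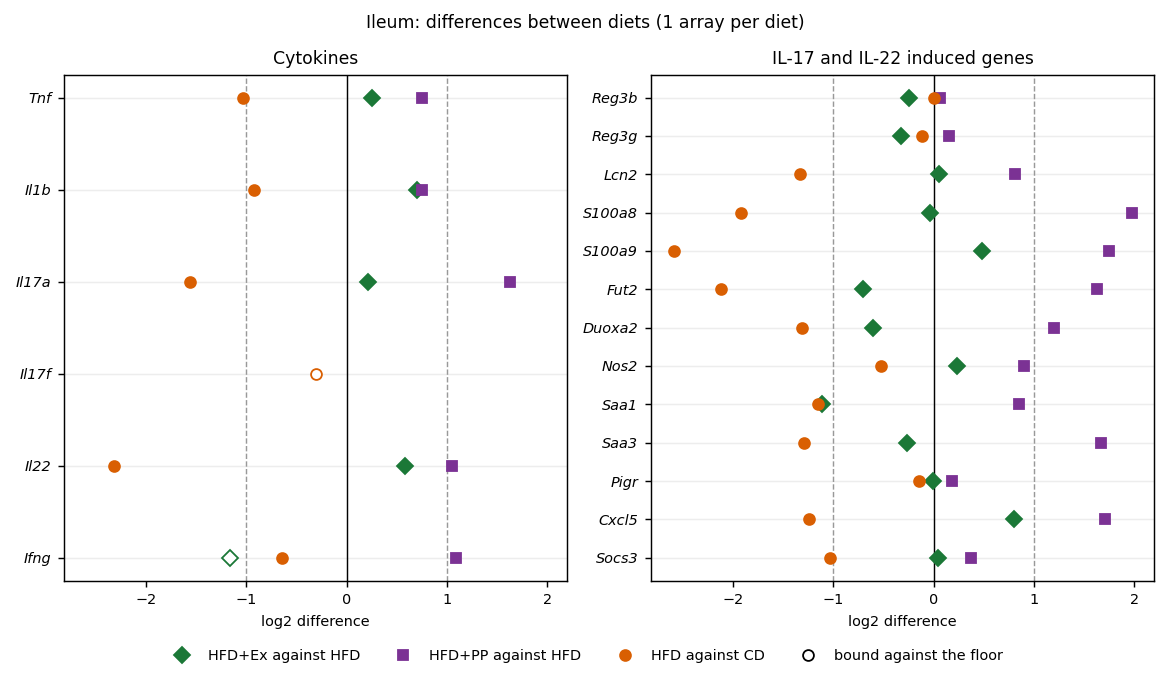
Log2 difference in ileum of the cytokines measured there (left) and of genes induced by interleukin-17 and interleukin-22 (right), for HFD+Ex against HFD (diamonds), HFD+PP against HFD (squares) and HFD against CD (circles), 1 array per diet. Open symbols are bounds against the floor and dashed lines mark 1 log2 either way. Il17a and Il22 lie left of −1 for HFD against CD and right of 1 for HFD+PP against HFD, and Reg3b and Reg3g lie near 0.

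Markers of T cells and natural killer cells did not move by the threshold in ileum. Of 17, 0 were called in any of the 4 comparisons. Their median was −0.38 in HFD against CD and −0.002 in HFD+PP against HFD. It was −0.40 in HFD+Ex against HFD and −0.46 in HFD+Ex against HFD+PP. The mean level of the list was −0.92 with HFD+Ex, −0.57 with HFD+PP, −0.54 with HFD and −0.28 with CD. Of the 12 transcription factors of T helper and innate lymphoid cells, 0 were called. Of the receptors, Il22ra1, the epithelial interleukin-22 receptor chain, differed by 0.85 in HFD against CD, and Il23r by −0.98. Il22ra1 and Il23r were named after their values were seen.

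Fat cell markers moved in ileum along with these cytokines. Of 8, 4 were lower in HFD than in CD, 5 were higher in HFD+PP than in HFD, 0 were called in HFD+Ex against HFD and 5 were lower in HFD+Ex than in HFD+PP. Their mean level was −0.04 with HFD+Ex, 0.97 with HFD+PP, −0.05 with HFD and 0.96 with CD, and all 8 were well above background on every ileum array. Adipoq, the fat cell hormone adiponectin, differed by −2.03 in HFD against CD and 1.71 in HFD+PP against HFD. The neutrophil list, which shares S100a8 and S100a9, had 2 of 6 measured genes lower in HFD than in CD and 3 of 6 higher in HFD+PP than in HFD. The part of adhering fat or of neutrophils in the ileal cytokine differences was not tested.

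In mesenteric fat, Il1b, Il6 and Il12a were higher with HFD+Ex than with HFD or HFD+PP, while Tnf, Il1b, Ifng and Il17a were lower with HFD than with CD. Il6 stood at −1.66 with HFD+Ex, −4.33 with HFD+PP, −3.98 with HFD and −3.72 with CD. HFD+Ex stood apart, above the other 3 arrays. The difference was 2.31 log2 in HFD+Ex against HFD, a fold of 4.97, and 2.67 in HFD+Ex against HFD+PP, a fold of 6.36. The 2 Il6 spots of the HFD+Ex array read −1.72 and −1.61.

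Il12a, the interleukin-12 subunit also called p35, stood at −2.23 with HFD+Ex and −5.53 with HFD+PP, and at −7.72 with HFD and −5.60 with CD, where it was not well above background. HFD+Ex was higher than HFD by at least 3.34 log2, a fold of at least 10.1, and higher than HFD+PP by 3.30. Its probe was printed once, so no second spot checks that value. Interleukin-12 also needs the Il12b product, so the Il12a level alone does not give its amount.

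Il1b stood at −1.12 with HFD+Ex, −2.63 with HFD+PP, −3.65 with HFD and −1.90 with CD. HFD was the lowest array and HFD+Ex the highest. The log2 difference was −1.74 in HFD against CD, 1.01 in HFD+PP against HFD, 2.53 in HFD+Ex against HFD and 1.51 in HFD+Ex against HFD+PP. The 10 spots of the probe gave an SD of single-spot differences of 0.18 or less in these 4 comparisons. Tnf stood at −2.18 with HFD+Ex, −2.25 with HFD+PP, −2.63 with HFD and −1.36 with CD, so the high-fat arrays lay together below CD. HFD was lower than CD by 1.27 log2, and the differences of HFD+Ex and HFD+PP from HFD were 0.46 and 0.39.

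Ifng stood at −3.75 with HFD+Ex, −3.58 with HFD+PP, −4.91 with HFD and −2.79 with CD. HFD was the lowest array, lower than CD by 2.12 log2, and HFD+Ex and HFD+PP were higher than HFD by 1.16 and 1.34. The 2 Ifng spots of the HFD array read −5.27 and −4.55. Against the brighter spot alone, the differences of HFD+Ex and HFD+PP from HFD fall short of the threshold, while that of HFD from CD does not. Il17a stood at −4.48 with HFD+PP and −3.88 with CD, and at −7.21 with HFD+Ex and −6.20 with HFD, where it was not well above background. It was lower in HFD than in CD by at least 1.69, higher in HFD+PP than in HFD by at least 1.09 and lower in HFD+Ex than in HFD+PP by at least 1.43. Il10, the restraining cytokine, was well above background with HFD+PP and CD, at −5.31 and −4.69, and no difference reached the threshold. Il22 stayed between −4.81 and −4.38 on the 4 arrays.

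HFD against CD had 4 of 7 measured cytokines lower and 0 higher, in a tissue where 8.43% of all measured genes were lower and 8.88% higher. HFD+PP against HFD had 3 of 8 higher and 0 lower, where 4.65% were higher and 3.75% lower. HFD+Ex against HFD had 4 of 6 higher and 0 lower, where 3.62% were higher and 3.78% lower. HFD+Ex against HFD+PP, on 1 slide, had 3 of 8 higher and 1 lower, where 0.526% were higher and 2.48% lower. With normexp background correction, 5 calls were left in this tissue and in the whole data, namely Il1b and Il6 in HFD+Ex against HFD, at 1.56 and 1.29, and against HFD+PP, at 1.03 and 1.38, and Il12a in HFD+Ex against HFD, at 1.103. With quantile normalization, Il1b and Il17a in HFD+PP against HFD and Ifng in HFD+Ex against HFD fell short, at 0.86, 0.83 and 0.99.

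Lymphoid markers separated the mesenteric fat arrays widely. Of 17 T and natural killer cell markers, 16 were lower and 0 higher in HFD than in CD, with a median of −3.20, and 13 were higher and 0 lower in HFD+PP than in HFD and in HFD+Ex than in HFD, while 0 were called in HFD+Ex against HFD+PP. Their mean level was 1.21 with HFD+Ex, 1.29 with HFD+PP, −0.48 with HFD and 2.33 with CD. All 10 B and plasma cell markers were lower in HFD than in CD, and 9 were higher in each supplemented diet than in HFD. Macrophage markers ran the other way, with 9 of 13 higher and 1 lower in HFD than in CD, and a mean level of 2.00 with HFD+Ex, 1.87 with HFD+PP, 3.22 with HFD and 1.25 with CD. Trem2 and Mmp12, markers of lipid-laden macrophages, were higher in HFD than in CD by 4.46 and 5.85. Neutrophil markers had a mean level of −1.49 with HFD+Ex, −2.05 with HFD+PP, −2.26 with HFD and −2.41 with CD, and S100a9 was higher by 2.39 in HFD+Ex than in HFD. The part of these cells in the cytokine differences was not tested.

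Markers of other organs also differed between the mesenteric fat arrays. All 11 exocrine pancreas markers were lower in HFD than in CD and higher in HFD+PP and in HFD+Ex than in HFD, and their mean level was 4.94 with HFD+Ex, 6.87 with HFD+PP, 0.08 with HFD and 5.93 with CD. All 12 intestinal epithelium markers were higher in HFD than in CD and lower in HFD+Ex than in HFD, and their mean level was −3.22 with HFD+Ex, −0.28 with HFD+PP, 0.12 with HFD and −2.66 with CD. The 8 fat cell markers averaged 6.29 with HFD+Ex, 6.32 with HFD+PP, 6.32 with HFD and 5.72 with CD. The part of pancreas, gut or lymph node tissue in the cytokine differences was not tested. In HFD+Ex against HFD+PP, the comparison in which Il1b, Il6 and Il12a were higher, 0 lymphoid, 0 dendritic and 0 macrophage markers were called, and all 11 pancreas and all 12 intestinal markers were lower. Of 9 measured neutrophil markers, 1 was higher and 0 lower there, with a median of 0.39, and 3 were higher and 0 lower in HFD+Ex against HFD, with a median of 0.63.

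**Figure D3:**
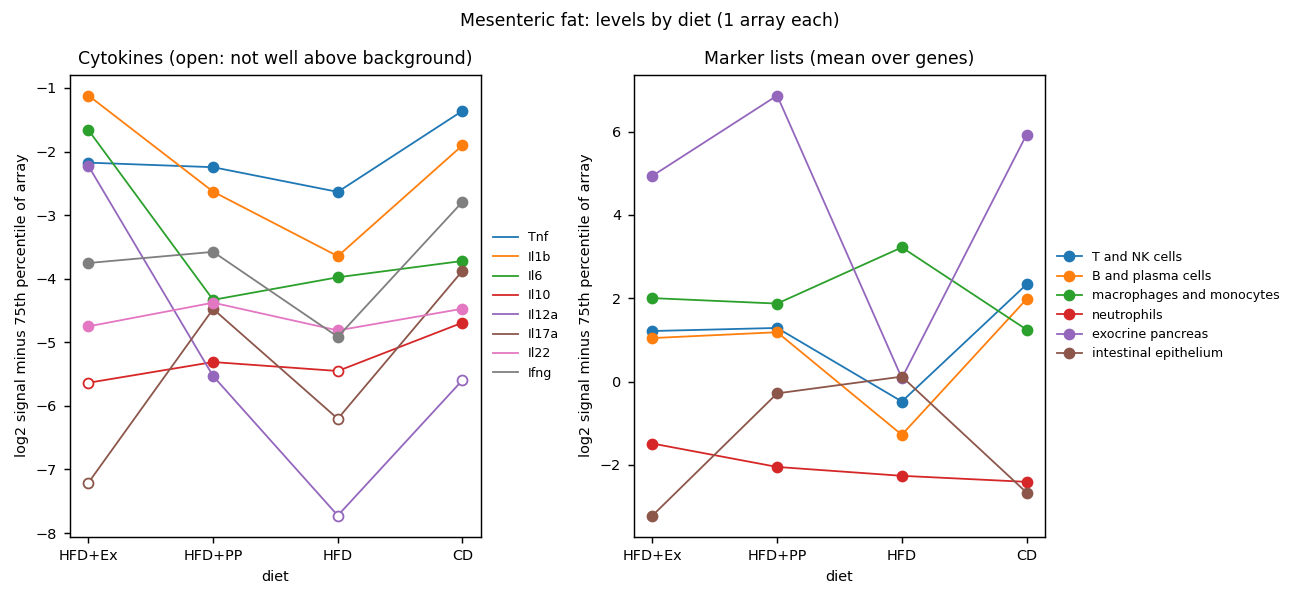
Log2 level in mesenteric fat of the 8 cytokines well above background on at least 1 array (left) and mean log2 level of marker lists (right) on the HFD+Ex, HFD+PP, HFD and CD arrays, 1 each. Lines join the arrays of a gene or list for reading only, and open points were not well above background. Il1b, Il6 and Il12a peak with HFD+Ex, while T and B cell marker lists are lowest with HFD.

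Genes around the cytokines also differed in mesenteric fat. Of the 12 T helper and innate lymphoid transcription factors, 8 were lower and 0 higher in HFD than in CD, with a median of −1.67, and 3 were higher in HFD+PP and 3 in HFD+Ex than in HFD. Foxp3, the regulatory T cell factor, was lower by 2.59 in HFD than in CD. Of the related cytokines and partner subunits, 6 of 13 measured were lower and 2 higher in HFD than in CD. In HFD+Ex against HFD, 5 of 13 were higher and 1 lower. In HFD+Ex against HFD+PP, 0 of 14 were higher and 1 lower. Lta and Ltb, the lymphotoxins that organise lymphoid tissue, were lower by 3.80 and 3.41, and Il1rn, the interleukin-1 receptor antagonist, differed by −2.25 in HFD+Ex against HFD and by −2.20 in HFD+PP against HFD. Il22ra2, the soluble interleukin-22 decoy receptor, was lower by 6.15 in HFD than in CD and higher by 3.88 in HFD+Ex and 3.64 in HFD+PP than in HFD.

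Genes that tumour necrosis factor and interleukin-1 are known to induce were not called higher in HFD+Ex than in HFD. Of 15 measured in mesenteric fat, 0 were higher and 2 lower in HFD+Ex than in HFD, with a median of 0.18, and Ccl2, a monocyte chemokine, was lower by 1.101. In HFD against CD, 3 were higher and 5 lower, and Ccl2 was higher by 2.82. In HFD+Ex against HFD+PP, on 1 slide, 1 of 14 measured was higher and 0 lower, with a median of 0.05. Of the genes induced by interleukin-17 and interleukin-22, 3 of 13 were higher and 2 lower in HFD+Ex than in HFD, among them Cxcl5, higher by 2.32. In HFD against CD, where Il17a was lower, 5 of 11 measured genes of that list were higher and 1 lower, with a median of 0.85. In HFD+PP against HFD, 5 of 13 were higher and 2 lower, with a median of 0.31. Of the 15 interferon-gamma induced genes, 6 were lower and 0 higher in HFD than in CD, with Socs1 lower by 2.11, and 2 were higher in HFD+PP and 2 in HFD+Ex than in HFD. Of the 9 inflammasome genes, Aim2, lower by 1.53 in HFD than in CD, was the 1 called in that comparison, and 0 were called in HFD+Ex against HFD.

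In colon, Ifng was higher with HFD+PP than with any other diet, together with genes that interferon-gamma induces. Ifng stood at −6.30 with HFD+Ex, −4.06 with HFD+PP, −6.29 with HFD and −6.11 with CD. The HFD+PP array was the only colon array on which it was well above background, with its 2 spots at −4.11 and −4.01. It was higher in HFD+PP than in HFD by at least 2.01 log2, a fold of at least 4.03, and lower in HFD+Ex than in HFD+PP by at least 1.68. The other cytokines measured in colon were not called in any comparison.

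Tnf stood at −3.71 with HFD+Ex, −3.01 with HFD+PP, −3.51 with HFD and −2.90 with CD. Il1b stood at −3.30 with HFD+Ex, −3.05 with HFD+PP, −2.80 with HFD and −2.95 with CD. Il22 stood at −4.64 with HFD+Ex, −4.35 with HFD+PP, −4.85 with HFD and −4.60 with CD. All 3 genes kept within 1 log2 over the 4 diets. Il17a and Il17f were not well above background on any colon array.

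HFD+PP against HFD had 1 of 4 measured cytokines higher and 0 lower, where 1.71% of all measured genes were higher and 1.11% lower. HFD+Ex against HFD+PP had 0 higher and 1 of 4 lower, where 1.74% were higher and 1.39% lower. The call was Ifng in both, as a bound. Ifng counted as measured there only through the HFD+PP array, where it was high, so these shares are not like those of all genes. HFD against CD had 0 of 3 higher or lower, where 0.427% were higher and 1.7% lower, and HFD+Ex against HFD had 0 of 3, where 1.12% were higher and 0.402% lower. With normexp background correction, the Ifng difference of HFD+PP from HFD was 0.51 and that of HFD+Ex from HFD+PP −0.59, both short of the threshold. The 4 colon arrays lay on 1 slide.

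Of 15 interferon-gamma induced genes in colon, 6 were higher and 0 lower in HFD+PP than in HFD, with a median of 0.94, against −0.03 over all measured genes. In HFD+Ex against HFD+PP, 7 were lower and 0 higher, with a median of −0.91, and in HFD against CD 0 were called, with a median of −0.12. Cxcl10 and Cxcl9, chemokines that draw activated T cells, were higher in HFD+PP than in HFD by 2.11 and 1.73. Igtp and Gbp2, interferon-induced GTPases, were higher by 1.78 and 1.56. In HFD+Ex against HFD+PP, Cxcl9 was lower by 2.74 and Cxcl10 by 2.53. In ileum 1 of these 15 genes was higher and 1 lower in HFD+PP than in HFD.

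**Figure D4:**
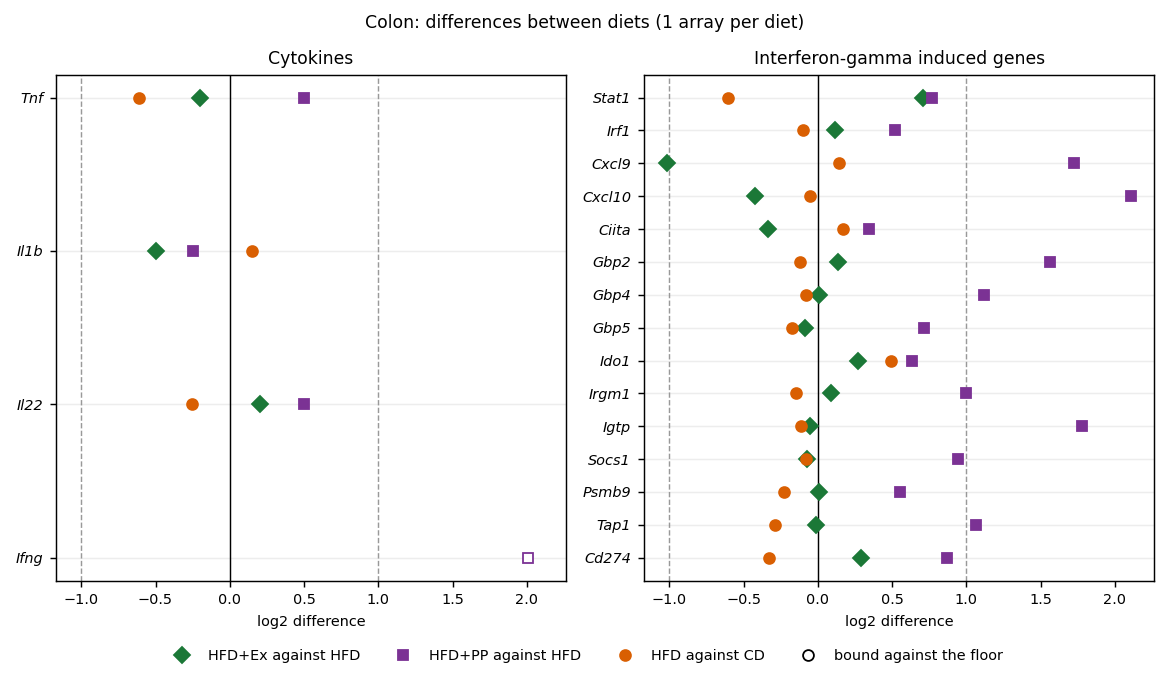
Log2 difference in colon of the cytokines measured there (left) and of interferon-gamma induced genes (right), for HFD+Ex against HFD (diamonds), HFD+PP against HFD (squares) and HFD against CD (circles), 1 array per diet. Open symbols are bounds against the floor and dashed lines mark 1 log2 either way. Ifng and 6 of the 15 induced genes lie right of 1 for HFD+PP against HFD.

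T and natural killer cell markers in colon had 0 of 17 called in HFD+PP against HFD, and their mean level was −1.73 with HFD+Ex, −1.47 with HFD+PP, −1.64 with HFD and −1.50 with CD. Markers of intestinal epithelium and of pancreas did differ. Of 11 measured intestinal epithelium markers, 4 were higher in HFD+PP than in HFD, led by Isx at 4.51, and 3 of 11 pancreas markers were higher, led by Cpa1 at 1.53. Of the genes induced by interleukin-17 and interleukin-22, Reg3b, Reg3g and Socs3 were higher in HFD+PP than in HFD by 5.04, 3.28 and 2.02, and 1 of the 14 was lower. The part of these tissues in the Ifng difference was not tested.

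In liver, 3 cytokines were measured in each comparison and 0 were called. Il1b stood at −1.46 with HFD+Ex, −1.61 with HFD+PP, −1.22 with HFD and −1.08 with CD. Il22 stood at −2.92 with HFD+Ex, −2.88 with HFD+PP, −3.25 with HFD and −3.11 with CD. The 4 diets thus lay close together for both genes. Tnf was well above background with HFD+PP and HFD, at −4.90 and −4.53, and not with HFD+Ex or CD, and HFD was higher than CD by at least 0.56. At that level the 10 Tnf spots of 1 array varied widely, with an SD of 0.41 with HFD, against 0.07 on the CD array of mesenteric fat.

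The share of all measured liver genes that were higher and lower was 3.45% and 1.35% in HFD against CD, 0.579% and 1.54% in HFD+PP against HFD, 1.43% and 1.44% in HFD+Ex against HFD, and 1.35% and 0.398% in HFD+Ex against HFD+PP. Of 10 genes induced by interleukin-17 and interleukin-22 that were measured in liver, 5 were higher and 0 lower in HFD than in CD, among them Lcn2 by 3.95 and Saa1 by 2.68, both also acute-phase genes of hepatocytes. Macrophage markers had 6 of 13 higher and 1 lower in that comparison, with Cx3cr1 higher by 2.40 and a median of 0.54. Fat cell markers had 5 of 6 higher, with a median of 1.43, and mesothelial markers 5 of 6, with a median of 1.35. Their part in the induced genes was not tested.

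In brown fat, 1 or 2 cytokines were measured in each comparison and 0 were called. Il1b passed background with HFD+Ex alone, at −4.46, and was higher there than with HFD by at least 0.27. Il22 was well above background with HFD+Ex and HFD, at −4.24 on both. Hepatocyte markers in brown fat had a mean level of −1.34 with HFD+Ex, −2.41 with HFD+PP, 0.08 with HFD and −2.305 with CD. The part of liver tissue in the Il22 signal was not tested. Macrophage markers had 10 of 13 higher and 0 lower in HFD than in CD, while Tnf was not well above background on any brown fat array. The shares of all measured genes higher and lower were 5.45% and 3.03% in HFD against CD, 1.41% and 2.18% in HFD+PP against HFD, 0.783% and 3.19% in HFD+Ex against HFD, and 1.24% and 1.42% in HFD+Ex against HFD+PP.

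For the 3 cytokines detected on at least 10 arrays, the genes with the most similar levels over the 20 arrays were named, by Pearson's correlation, as a description in which tissues and mice are shared between arrays. For Tnf they were Cyfip2, Havcr2, an inhibitory receptor of T cells and myeloid cells, and Gm5547, with r of 0.965, 0.964 and 0.961. For Il1b they were Dnase1l3, a secreted nuclease of myeloid cells, Tlr12 and Rexo4, with r of 0.949, 0.939 and 0.927. For Il22 they were Ccdc86, Bhmt, a liver enzyme of methionine metabolism, and 1110025L11Rik, with r of 0.851, 0.847 and 0.838. After each tissue's mean was subtracted, r fell to between 0.594 and 0.701 for the Tnf genes, between 0.340 and 0.730 for the Il1b genes and between 0.446 and 0.551 for the Il22 genes.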

How the data were processed

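Per the file headers, spots were quantified by Agilent Feature Extraction, version 11.5.1.1 (protocol GE1_1105_Oct12). The deposited scanner values are linear intensities, background already removed by that software, and the authors' series matrix is that intensity times 1 factor per array, linear and not centred, with column medians between 53.5 and 103.6, and how the factor was set is unknown. Of 62976 spots per array, controls and spots with an outlier flag were left out, spots of 1 probe were averaged, and 28026 of 55681 probes received a symbol by accession from a RefSeq table of GRCm38.p6. Differences of log2 levels were computed over all 21154 genes with Python 3.11.15, numpy 2.4.6 and pandas 2.3.3, and the normexp alternative with limma 3.58.1 in R 4.3.3 on the deposited median signals, in place of mean signals, with an offset of 50. The difference scripts were tested on simulated data. The labels give 1 pool per group, so no test was run.

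The members and the gene lists were chosen with earlier results of these data known. All 10 cytokines are named in every tissue, from each list up to 4 genes per comparison with the largest differences of at least 1 log2, and per cytokine detected on 10 arrays or more the 3 most similar genes. Genes beyond that rule, among them list members given because they did not differ, were chosen after their values were seen. Of 233 list entries, 226 were found on the arrays.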

Additional observations from a re-analysis of the deposited data

Results flagged for a closer look

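Ifng differed in opposite directions between HFD+Ex and HFD in 2 tissues of the same mice. In mesenteric fat the log2 difference was 1.1605, with levels of −3.75 with HFD+Ex and −4.91 with HFD, and in ileum it was −1.1593, a bound, with levels of −5.59 with HFD+Ex and −4.39 with HFD. The 2 Ifng spots of the mesenteric fat HFD array read −5.27 and −4.55, and against the brighter spot alone the difference there falls short of 1 log2. The difference between the tissues was not tested, because each value rests on 1 array per group. The mesenteric fat arrays lay on different slides and the ileum arrays on 1 slide, and T and natural killer cell markers had 13 of 17 higher in HFD+Ex than in HFD in mesenteric fat and 0 of 17 called in ileum. The part of slide and of these cells was not tested.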

How the results depend on the processing

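Of the 26 calls, 26 were kept with the authors' scaling, with the median of bright probes, with the mean of all probes and without a filter on dim probes, 21 with quantile normalization, 18 when both arrays had to be well above background and 5 with normexp. Normexp left 0 lower in HFD against CD, 0 higher in HFD+PP against HFD, and 0 lower in HFD+Ex against HFD and against HFD+PP. Quantile normalization left 4 higher in HFD+PP against HFD. Requiring both arrays above background left 0 lower in HFD+Ex against HFD and 1 lower in HFD+Ex against HFD+PP. Without the filter there were 2 higher in HFD against CD, 12 higher and 1 lower in HFD+PP against HFD, 2 lower in HFD+Ex against HFD and 7 lower in HFD+Ex against HFD+PP. A slide block could not be fitted with 1 array per group, and on single slides 4 were higher in HFD+PP against HFD and 0 in HFD+Ex against HFD. The 1 reversal was Ifng in ileum, HFD+PP against HFD, at −0.1799 without the brighter spot, where HFD+Ex against HFD+PP also came to −0.98, an alternative chosen after seeing the data. With normexp 4 of 10 genes kept their tissue of highest median, and it became liver for Il6, Il10, Il12a, Il17a, Il17f and Ifng. None of those genes that moved to liver was well above background on any liver array. Apart from the filters, which set which genes count, and the spot left out, the cause was not tested. No paired analysis was possible because each group is 1 array. Single arrays and dim signals limit precision.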
